A study of Mus musculus with 30 samples.

Results

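The comparison set 12 carcinoma samples, 6 of carcinoma in situ and 6 of invasive carcinoma, against 15 premalignant samples, 8 of hyperplasia and 7 of dysplasia, across all measured genes. These are 27 of the 30 samples of a mouse study of oral carcinogenesis, and the 3 normal samples were left out. Male C57BL/6J mice took 4-nitroquinoline-1-oxide (4NQO), a carcinogen whose metabolites form bulky DNA adducts, in drinking water at 100 ug/mL for 10 weeks from 6 weeks of age. That protocol is given for every sample, and so is the tissue name, oral squamous cell carcinoma, whichever the stage. The labels give no age at collection and do not say that samples came from separate animals, so p-values here rest on sample-to-sample spread, which may be technical. Sample codes begin with A in hyperplasia, with B in dysplasia and with C in carcinoma of either stage. Class and any batch that went with that letter cannot be told apart. The same holds for hyperplasia against dysplasia and for dysplasia against carcinoma in situ, whose letters differ.

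The oral mucosa is a stratified squamous epithelium in which basal keratinocytes on a laminin-rich basement membrane divide, and their daughters switch keratins and build a cornified surface as they move outward. Hyperplasia and dysplasia are thickened and disordered epithelia. Carcinoma in situ fills the full thickness of the epithelium with atypical cells, and invasive carcinoma has crossed the basement membrane, a step in which matrix proteases and laminin receptors take part.

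RNA of whole tissue was sequenced, with 17725604 to 28023098 counts per sample, and 16203 genes had enough counts to be tested. Levels are in CPM, a gene's counts scaled to the size of its library. A change is the log2 fold change of carcinoma over premalignant ± 1 standard error, and a gene is said to rise or fall where edgeR's quasi-likelihood test gave a Benjamini-Hochberg adjusted p under 0.05. A marker of squamous epithelium was high in both classes, which does not test the label of carcinoma. Krt5, a keratin of basal squamous cells, had 1794 to 3238 CPM in the premalignant samples and 2631 to 6998 CPM in the carcinomas. The samples also held muscle and gland. The summed level of 30 skeletal muscle genes was 37470 to 86470 CPM (median 58250) in the premalignant samples and 23870 to 63800 CPM (median 46740) in the carcinomas. Of these 30 genes 12 fell and 2 rose, with a median of -0.27, and the part of muscle in any other difference was not tested beyond a fit with a muscle score. The first principal component, with 33.8% of the variance, had the salivary genes Bpifb2, Muc5b and Gp2 at its end and spread from -40.03 to 43.12 in the premalignant samples and from -28.51 to 51.15 in the carcinomas. In whole tissue, fewer cells of a type and less RNA per cell cannot be told apart.

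In all, 3373 genes (20.8%) rose and 3095 (19.1%) fell, so that 39.9% of the tested genes differed between the classes. List counts of the pooled comparison are to be read beside these shares. Most differences were small, since 79.5% of the called genes changed by less than 1.5-fold and the median size of a called change was 0.35 on the log2 scale. At least 2-fold changes were more often increases, with 240 genes higher (1.48%) and 107 lower (0.66%). Against a fold of 1.5 itself, glmTreat called 107 genes higher and 23 lower. In 9 genes (0.0555%) every carcinoma sample lay above every premalignant sample, and in 5 (0.0309%) every one lay below. Among genes of at least 10 CPM, with predicted genes, pseudogenes and antigen receptor segments left out, these were 8 higher and 3 lower. The 8 were Adam8, BC100530, Slc2a1, Mab21l3, Gabarap, Ahsa1, Sarnp and Cnih1, and the 3 were Itpkb, Maml3 and Spry1.

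**Figure D1:**
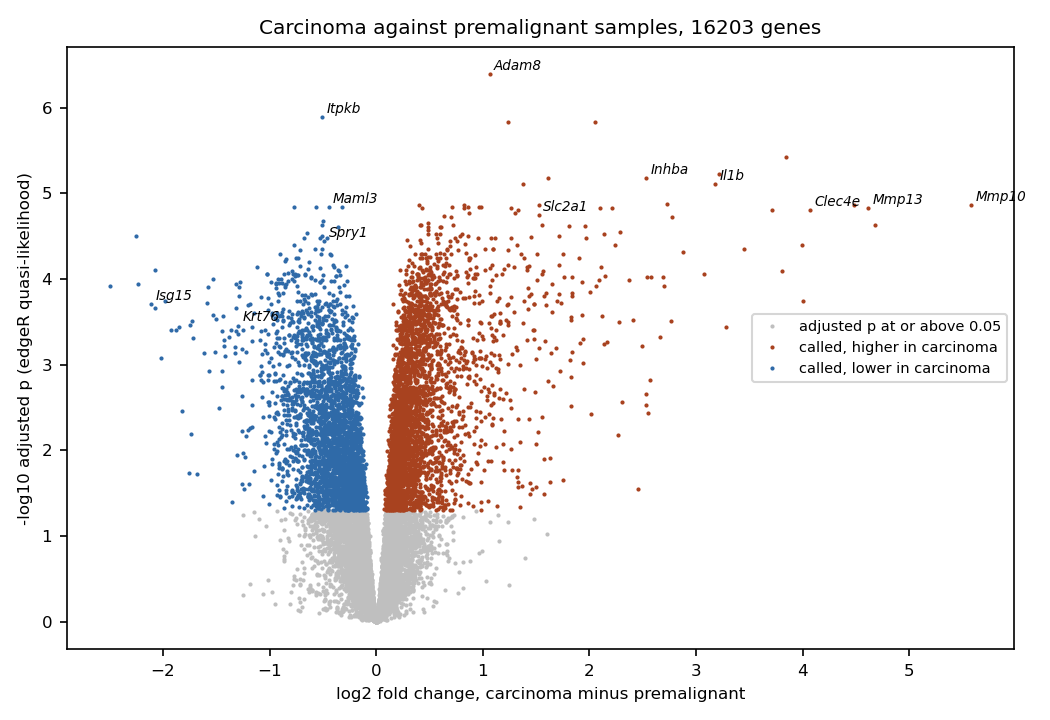
Each point is 1 of 16203 tested genes, with the log2 fold change of 12 carcinoma over 15 premalignant samples on the horizontal axis and -log10 of the adjusted p on the vertical axis. Red points rose and blue points fell at an adjusted p under 0.05, grey points did not pass, and the largest increases (Mmp10 at 5.58) lie farther from 0 than the largest decreases (Apol9a at -2.50).

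Genes of matrix breakdown and of attachment to the basement membrane rose together. Of 24 tested members of the list of invasion proteases and laminin receptors, 20 rose and 1 fell, with a median change of 0.996 on the log2 scale, beside a median of 0.00 over all genes. Adam8, a membrane metalloprotease (ENSMUSG00000025473.16, GRCm38 chromosome 7, 139978932 to 139992562, minus strand), had the smallest p of all genes. It ran from 10.4 through a median of 14.2 to 17.0 CPM in the premalignant samples and from 22 through 27.2 to 39.7 CPM in the carcinomas. The classes did not overlap, and the change was 1.07 ± 0.10 (adjusted p = 4.1e-07).

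The stromelysins and collagenases had the largest changes of the list. A shared stretch of chromosome 9 holds Mmp13, which cuts fibrillar collagen, Mmp3 and Mmp10, which cut proteoglycans and activate other proteases, and Mmp12, the macrophage elastase. Mmp13 lay at 0.274 to 4.06 CPM (median 0.603) in the premalignant samples and at 0.740 to 75.3 CPM (median 13.5) in the carcinomas, a change of 4.62 ± 0.59 (adjusted p = 1.5e-05). In 9 of 12 carcinomas it was above every premalignant sample. Mmp3 went from 3.51 to 12.1 CPM (median 4.63) to 6.05 to 103 CPM (median 32.8), by 2.78 ± 0.37 (adjusted p = 1.9e-05). Mmp10 was at most 0.856 CPM in the premalignant samples and 0.174 to 25.0 CPM (median 4.05) in the carcinomas, by 5.58 ± 0.69 (adjusted p = 1.4e-05), and without dysplasia sample 6 its change was 6.21. Mmp12 rose by 2.05 ± 0.22 and was above every premalignant sample in 11 of 12 carcinomas. For Mmp12 no motif search is given here. Mmp13, Mmp3 and Mmp10 carry, in the 250 bases before their start, the letters TGANTCA, which the AP-1 (Fos and Jun) proteins can bind. Both strands were searched. The windows, from RefSeq on GRCm38.p6 and read 5′ to 3′ on the gene's strand with the match in capitals, are shown because these neighbours rose together: Mmp13 (chr9:7272264-7272513, plus strand), Mmp3 (chr9:7445572-7445821, plus strand) and Mmp10 (chr9:7502092-7502341, plus strand).
Mmp13: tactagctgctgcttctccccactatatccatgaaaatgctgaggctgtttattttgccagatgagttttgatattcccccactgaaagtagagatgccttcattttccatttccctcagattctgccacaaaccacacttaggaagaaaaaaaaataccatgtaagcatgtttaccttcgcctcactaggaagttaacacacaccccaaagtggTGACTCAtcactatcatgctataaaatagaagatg
Mmp3: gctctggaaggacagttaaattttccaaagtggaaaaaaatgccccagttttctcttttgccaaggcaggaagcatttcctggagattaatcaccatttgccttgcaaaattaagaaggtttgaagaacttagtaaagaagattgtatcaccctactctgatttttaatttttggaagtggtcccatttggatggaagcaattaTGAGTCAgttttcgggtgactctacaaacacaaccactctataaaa
Mmp10: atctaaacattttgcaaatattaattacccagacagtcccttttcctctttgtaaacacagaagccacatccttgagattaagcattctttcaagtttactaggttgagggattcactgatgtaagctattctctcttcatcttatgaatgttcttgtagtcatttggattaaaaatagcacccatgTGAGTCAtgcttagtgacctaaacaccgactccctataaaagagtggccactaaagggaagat
The match starts 35 bases before the start of Mmp13, 46 before that of Mmp3 and 63 before that of Mmp10. Of all 32851 windows of this length in the RefSeq set, 6.75% hold the same letters, and a match is a description, not a shown binding site. Windows were at hand for 15 of the 24 list members (62.5%), so the share within the list was not taken. The AP-1 genes themselves moved less: Fos rose by 1.24 ± 0.27 and Junb by 0.49 ± 0.12. In the AP-1 list 5 of 17 tested members rose and none fell, beside 20.8% and 19.1% of all genes.

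Genes that activate plasminogen, another source of matrix breakdown, rose as well. Plau, the urokinase that activates plasminogen, went from 25.0 to 45.1 CPM (median 33.7) to 37.6 to 145 CPM (median 72.6), by 1.08 ± 0.16 (adjusted p = 3.3e-05), and its receptor Plaur rose by 1.59 ± 0.29. Timp1, an inhibitor of the matrix metalloproteases, rose by 1.93 ± 0.32.

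Laminin-332 anchors basal keratinocytes. Lama3, its alpha chain, ran from 43.6 to 75.9 CPM (median 55.5) in the premalignant samples and from 61.6 to 405 CPM (median 110) in the carcinomas. In 10 of 12 carcinomas Lama3 was above every premalignant sample, and its change was 1.41 ± 0.22 (adjusted p = 7.8e-05). Lamb3, the beta chain, rose by 0.76 ± 0.13. Of the receptor genes, the integrin Itga6 rose by 0.92 ± 0.15, Itga3 by 0.62 ± 0.12 and Itgb4 by 0.35 ± 0.12. Inhba, the subunit of activin A, a growth factor of the TGF-beta family, was at 2.33 to 5.49 CPM (median 3.32) in the premalignant samples and at 3.92 to 48.2 CPM (median 15.5) in the carcinomas, by 2.53 ± 0.29 (adjusted p = 6.6e-06). In the TGF-beta and activin list 10 of 26 rose and 4 fell, beside 20.8% and 19.1% of all genes.

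**Figure D2:**
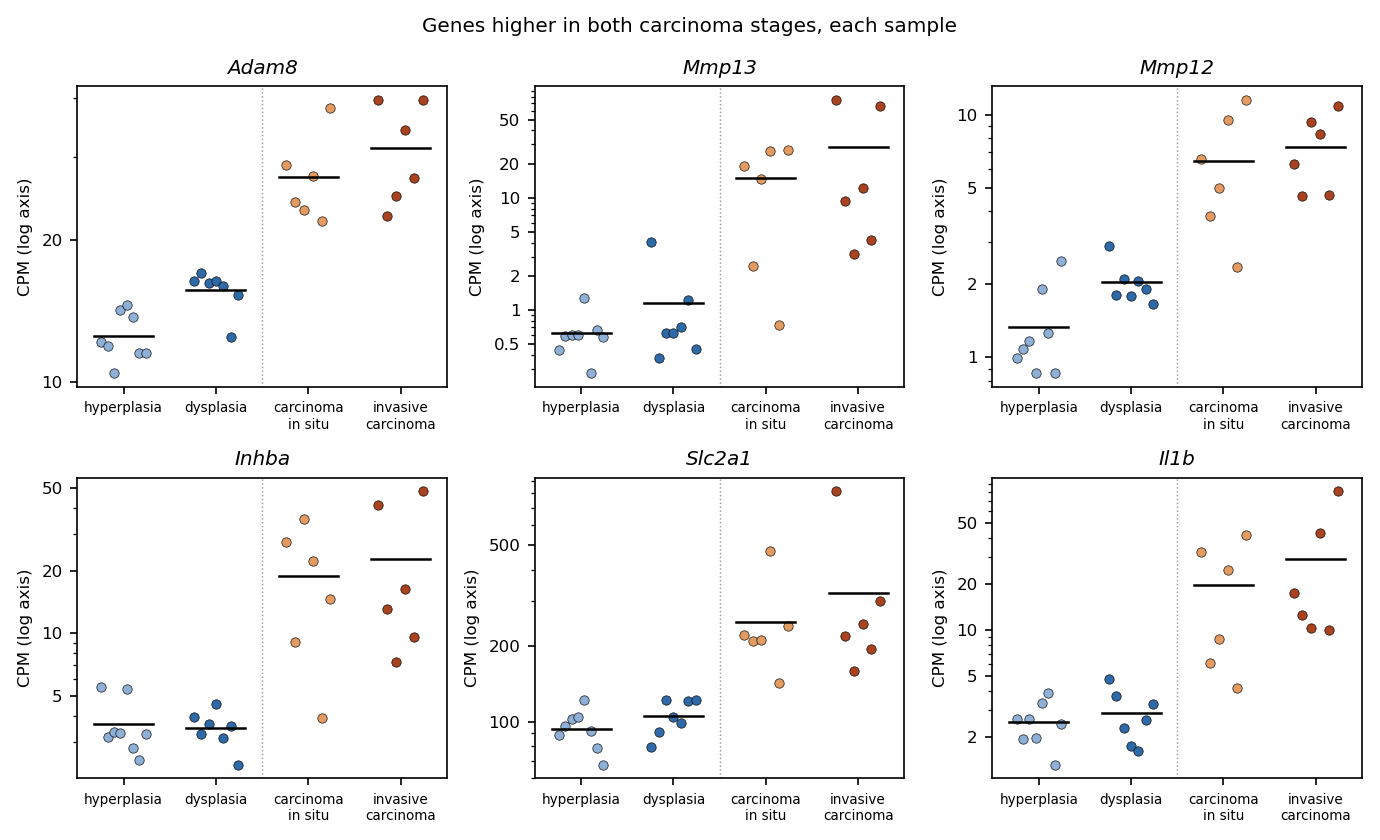
CPM on a log axis in each sample of the 2 premalignant stages (blue, n = 8 and 7) and the 2 carcinoma stages (orange and red, n = 6 each) for Adam8, Mmp13, Mmp12, Inhba, Slc2a1 and Il1b, with bars at the stage means and a dotted line between the classes. For Adam8 and Slc2a1 the classes do not overlap, and for the other 4 genes 9 to 11 of the 12 carcinomas lie above every premalignant sample.

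Inflammatory genes had the largest list medians. All 13 tested neutrophil genes rose (median 1.72), and 18 of 21 tested genes of IL-17 and acute cytokine signalling rose with none falling (median 1.24). The lists hold 22 and 29 genes, and those not tested had too few counts. The filter can keep a gene with enough counts in the carcinomas alone, so these shares can lean towards increases. Il1b, the cytokine interleukin-1 beta, went from 1.33 to 4.83 CPM (median 2.61) to 4.18 to 81.1 CPM (median 15.2), by 3.18 ± 0.37 (adjusted p = 7.8e-06), with 11 of 12 carcinomas above every premalignant sample. The neutrophil attractants Cxcl1, Cxcl2 and Cxcl3 lie side by side on chromosome 5. Cxcl1 was at 0.226 to 1.25 CPM in the premalignant samples and at 1.09 to 24.4 CPM in the carcinomas, and it rose by 3.85 ± 0.43. Cxcl2 rose by 4.48 ± 0.56 and Cxcl3 by 4.00 ± 0.58, both from levels that include libraries with no count.

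Il17a, the T cell cytokine that induces these attractants in epithelium, rose by 3.08 ± 0.50 but stayed at 0.305 to 5.06 CPM in the carcinomas. Genes of the responding cells moved with them. Csf3r, the receptor for granulocyte colony-stimulating factor, went from 0.539 to 6.78 CPM (median 1.55) to 2.13 to 36.9 CPM (median 7.14), by 2.69 ± 0.44 (adjusted p = 9.6e-05). Cxcr2, the receptor for the attractants above, rose by 1.42 ± 0.26 and Clec4e, a receptor for microbial and dead-cell lipids on myeloid cells, by 4.07 ± 0.53. BC100530, one of a cluster of near-identical stefin A genes of neutrophils whose reads may be split between copies, was at 1.55 to 7.68 CPM in the premalignant samples and at 10.1 to 151 CPM in the carcinomas, with no overlap.

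Epithelial alarm proteins changed unevenly. Of 21 injury keratins and alarmins 12 rose and 2 fell (median 1.05), beside 20.8% and 19.1% of all genes. Saa3, an acute-phase serum amyloid made locally, went from 0.153 to 5.83 CPM (median 1.48) to 3.26 to 195 CPM (median 38.7), by 4.68 ± 0.62 (adjusted p = 2.3e-05). S100a8 and S100a9, the subunits of calprotectin, rose by 2.53 ± 0.63 and 2.55 ± 0.65, with S100a8 already spread from 5.56 to 588 CPM among premalignant samples. Lcn2, an iron-trapping lipocalin, rose by 2.54 ± 0.41 and Krt17, a keratin of wounded epithelium, by 1.14 ± 0.25. The wounding keratins Krt6b (0.33) and Krt16 (0.41) did not pass, and Krt80 fell by 0.39. Krt6b passed without any 1 of 7 samples (hyperplasia 5, dysplasia 3, 4, 6 or 7, carcinoma in situ 1 or 4) and Krt16 without any 1 of 4 (dysplasia 3, 6 or 7, carcinoma in situ 4).

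Other immune lists moved less. Of 20 macrophage genes 9 rose and none fell (median 0.35), beside 20.8% and 19.1% of all genes. Examples are Spp1 at 2.17 ± 0.44 and Cd14 at 1.44 ± 0.23. Of 18 T cell genes 3 rose and 1 fell, beside 20.8% and 19.1% of all genes, with a median of 0.01. Of 14 checkpoint genes 4 rose and 2 fell, beside 20.8% and 19.1% of all genes, and the lowest change was -0.62. Their summed level had a median of 133 CPM in the premalignant samples and of 115 CPM in the carcinomas. The genes that fell are not named here. Pdcd1, the receptor PD-1, rose by 1.09 ± 0.22 but was at 0.667 to 2.65 CPM in the carcinomas, Havcr2 rose by 0.74 ± 0.18 and Cd276 by 0.56 ± 0.10, with Cd276 above every premalignant sample in 11 of 12 carcinomas. Cd274, the ligand PD-L1, had a change of -0.21 ± 0.19 (adjusted p = 0.40), and of -0.03 without dysplasia sample 2.

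Glucose uptake and hypoxia genes rose in part. Of 29 tested genes of glycolysis and hypoxia 17 rose and 2 fell (median 0.29). Slc2a1, the glucose transporter GLUT1, was at 67.6 to 122 CPM (median 98.9) in the premalignant samples and at 143 to 817 CPM (median 220) in the carcinomas. The classes did not overlap, and the change was 1.52 ± 0.20 (adjusted p = 1.8e-05). Hif1a, a transcription factor stabilised at low oxygen, went from 116 to 222 CPM (median 149) to 168 to 892 CPM (median 383), by 1.30 ± 0.17 (adjusted p = 1.7e-05). Car12, a carbonic anhydrase, rose by 0.83 ± 0.10, Egln3, an oxygen sensor, by 0.63 ± 0.10, and the glycolytic enzyme genes Pgam1 and Pfkp by 0.69 ± 0.13 and 0.52 ± 0.10. Of 26 nuclear oxidative phosphorylation genes 6 fell and none rose (median -0.15), a share near the 19.1% of all genes that fell. That count was 2 or 3 without hyperplasia sample 1, 2 or 4, dysplasia sample 7, carcinoma in situ sample 2 or 7 or invasive carcinoma sample 3, 9 or 12. It was 10 or 11 without dysplasia sample 6 or carcinoma in situ sample 1 or 4. Of 11 mitochondrially encoded genes 6 fell and none rose (median -0.40), and 10 fell without dysplasia sample 6. Examples are Sdha at -0.35 ± 0.10 and mt-Nd2 at -0.44 ± 0.11, and without hyperplasia no gene of either list fell. Skeletal muscle, which is rich in these transcripts, fell in the same samples. Sdha and mt-Nd2 kept their calls with the muscle score in the fit, and the part of muscle in these decreases was not tested beyond that fit.

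All 30 cytosolic ribosomal protein genes tested rose, within a narrow range of 0.28 to 0.51 (median 0.42). Rpl5 went from 445 to 599 CPM to 564 to 1003 CPM, and Rps3 rose by 0.51 ± 0.09. All 30 also rose with the muscle score in the fit. Amino acid and sterol supply genes rose in part, 12 of 20 ATF4 targets with 2 falling and 13 of 25 cholesterol and fatty acid genes with none falling. Of all genes 20.8% rose and 19.1% fell. Psat1, of serine synthesis, rose by 0.39 ± 0.08, Scd2, a fatty acid desaturase, by 0.67 ± 0.12 and Msmo1, of sterol synthesis, by 0.48 ± 0.10. Of 28 NRF2 targets, the antioxidant programme, 12 rose and 1 fell (median 0.34), with Gclm, of glutathione synthesis, and the peroxiredoxin gene Prdx1 each at 0.61 ± 0.14. With the muscle score in the fit, 4 NRF2 targets rose and none fell, a rising share near that of all genes there (2270 of 16203).

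Basal keratinocyte genes were higher. Of 16 tested, 13 rose and none fell (median 0.60), and 6 rose without hyperplasia, Krt5, Krt14 and Trp63 not among them. Krt14 rose by 0.81 ± 0.18 and its partner Krt5 by 0.58 ± 0.12. Cdh3, the P-cadherin of basal cells, went from 32.2 to 56.3 CPM (median 42.5) to 47.8 to 161 CPM (median 78.2), by 0.96 ± 0.14 (adjusted p = 3.3e-05), with 10 of 12 carcinomas above every premalignant sample. Pdpn, a surface glycoprotein of migrating keratinocytes and lymphatic vessels, rose by 0.72 ± 0.10, and Trp63, the transcription factor of basal identity, by 0.44 ± 0.11. Snai2, a repressor of E-cadherin, rose by 0.91 ± 0.15, but Zeb1 fell by 0.36 ± 0.09. Of 17 genes of epithelial-mesenchymal transition 4 rose and 5 fell, beside 20.8% and 19.1% of all genes.

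Genes of the outer layers were lower. Of 29 cornified envelope genes 15 fell and 1, Sprr1a, rose (median -0.56), and 6 fell without hyperplasia. Krt76, a keratin of the suprabasal oral epithelium, was at 940 to 2544 CPM (median 1521) in the premalignant samples and at 177 to 1208 CPM (median 554) in the carcinomas. In 9 of 12 carcinomas Krt76 was below every premalignant sample, and it fell by 1.29 on the log2 scale (SE 0.25, adjusted p = 0.00035). Crnn, cornulin, went from 107 to 295 CPM (median 186) to 23.1 to 136 CPM (median 58.0), with a change of -1.44 ± 0.27 (adjusted p = 0.00027). Its neighbours on chromosome 3 that make fused S100-type proteins also fell, Tchh by 1.32, Flg by 1.32 and Rptn by 0.79.

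The suprabasal keratins changed unequally. Krt24 fell by 0.88, Krt78 by 0.78 and Krt10 by 0.58, and of 16 genes of the oral and epidermal suprabasal list 5 fell and 1 rose, with 8 falling without hyperplasia sample 8, dysplasia sample 1 or carcinoma in situ sample 1. The summed level of that list was 37990 to 65070 CPM (median 54270) in the premalignant samples and 31840 to 65690 CPM (median 44000) in the carcinomas, so it overlapped throughout. The desmosome and envelope scaffold Ppl fell by 0.52 and the desmoglein Dsg1a by 0.53, while Dsg3, the desmoglein of deeper layers, rose by 0.68 ± 0.14 and Gjb2, a gap junction protein, by 0.79 ± 0.17. Of 14 hair-type keratins, found also in tongue papillae, 6 fell and none rose, beside 19.1% of all genes that fell, and 3 fell without invasive carcinoma sample 9.

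Response genes of type I interferon, the antiviral cytokines, had the lowest list median, -1.30, and 24 of 25 fell. Isg15, a ubiquitin-like modifier, was at 5.84 to 64.1 CPM (median 41.0) in the premalignant samples and at 3.35 to 12.4 CPM (median 8.97) in the carcinomas, a change of -2.11 ± 0.37 (adjusted p = 0.00019). Rsad2, the antiviral enzyme viperin, went from 4.57 to 24.7 CPM (median 15.4) to 2.06 to 12.1 CPM (median 4.36), with a change of -1.53 ± 0.28. Apol9a had a change of -2.50 ± 0.42, Ifit1 of -1.88 ± 0.36, Oas2 of -1.73 ± 0.33 and Irf7, the transcription factor of the pathway, of -1.45 ± 0.28; Ifit and Oas genes have close copies whose reads the counting may split. The classes overlapped for Isg15, with 3 of 12 carcinomas below every premalignant sample.

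The windows before Isg15 (chr4:156200819-156201068, minus strand) and Rsad2 (chr12:26456453-26456702, minus strand), read in the same way, are shown for the interferon-response letters TTTCNNTTTC, searched on both strands, which the factors ISGF3 and IRF can bind. The match is in capitals, and in Isg15 3 overlapping matches run together on the opposite strand.
Isg15: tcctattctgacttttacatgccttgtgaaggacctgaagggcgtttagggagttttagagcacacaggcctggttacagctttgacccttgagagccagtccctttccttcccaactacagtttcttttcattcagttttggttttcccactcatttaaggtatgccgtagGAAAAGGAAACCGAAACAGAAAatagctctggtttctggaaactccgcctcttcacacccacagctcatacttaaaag
Rsad2: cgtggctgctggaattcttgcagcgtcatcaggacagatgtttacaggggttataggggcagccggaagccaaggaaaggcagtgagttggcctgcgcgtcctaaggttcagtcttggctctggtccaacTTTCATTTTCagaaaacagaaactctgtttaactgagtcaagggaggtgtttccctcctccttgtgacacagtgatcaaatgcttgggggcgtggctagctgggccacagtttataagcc
Among all windows of 250 bases in that set, 2.98% hold these letters. Windows were at hand for 18 of the 25 list members (72.0%), so the share in the list was not taken.

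Within the premalignant class the interferon genes already differed. Hyperplasia had a mean Isg15 of 52.6 ± 13.8 CPM (SD, n = 8) and dysplasia one of 16.2 ± 12.8 (n = 7). The carcinomas had 9.31 ± 2.03 (in situ, n = 6) and 7.18 ± 3.71 (invasive, n = 6). From hyperplasia to dysplasia 20 of the 25 genes were called, with a median of -1.13, beside 6.03% of all genes. From dysplasia to carcinoma in situ none was called, with a median of -0.43, beside 5.86% of all genes. Without hyperplasia, none of these 25 genes passed between dysplasia and the carcinomas, while Apol9a, which is outside the list, kept its call. Of 16 MHC class I genes 8 fell in the pooled comparison (median -0.30), beside 19.1% of all genes. None fell without hyperplasia or without invasive carcinoma. With 1 sample left out 4 to 11 fell, 4 or 5 of them without hyperplasia sample 1, 2, 4, 6 or 7, dysplasia sample 2, carcinoma in situ sample 1 or invasive carcinoma sample 5, 9 or 12. The median steps of that list were -0.51 from hyperplasia to dysplasia, 0.05 to carcinoma in situ and -0.16 to invasive carcinoma. Tap1, the peptide transporter, had a mean of 77.5 ± 12.4 CPM in hyperplasia and of 42.1 ± 16.5 in dysplasia. It had 40.4 ± 6.82 CPM in the in situ and 37.0 ± 7.13 in the invasive carcinomas, and no class I gene fell with the muscle score in the fit. B2m, the light chain of class I molecules, fell by 0.41 (adjusted p = 0.032), a call lost without any 1 of 5 hyperplasia samples (1, 2, 4, 6 or 7) or invasive carcinoma sample 12.

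**Figure D3:**
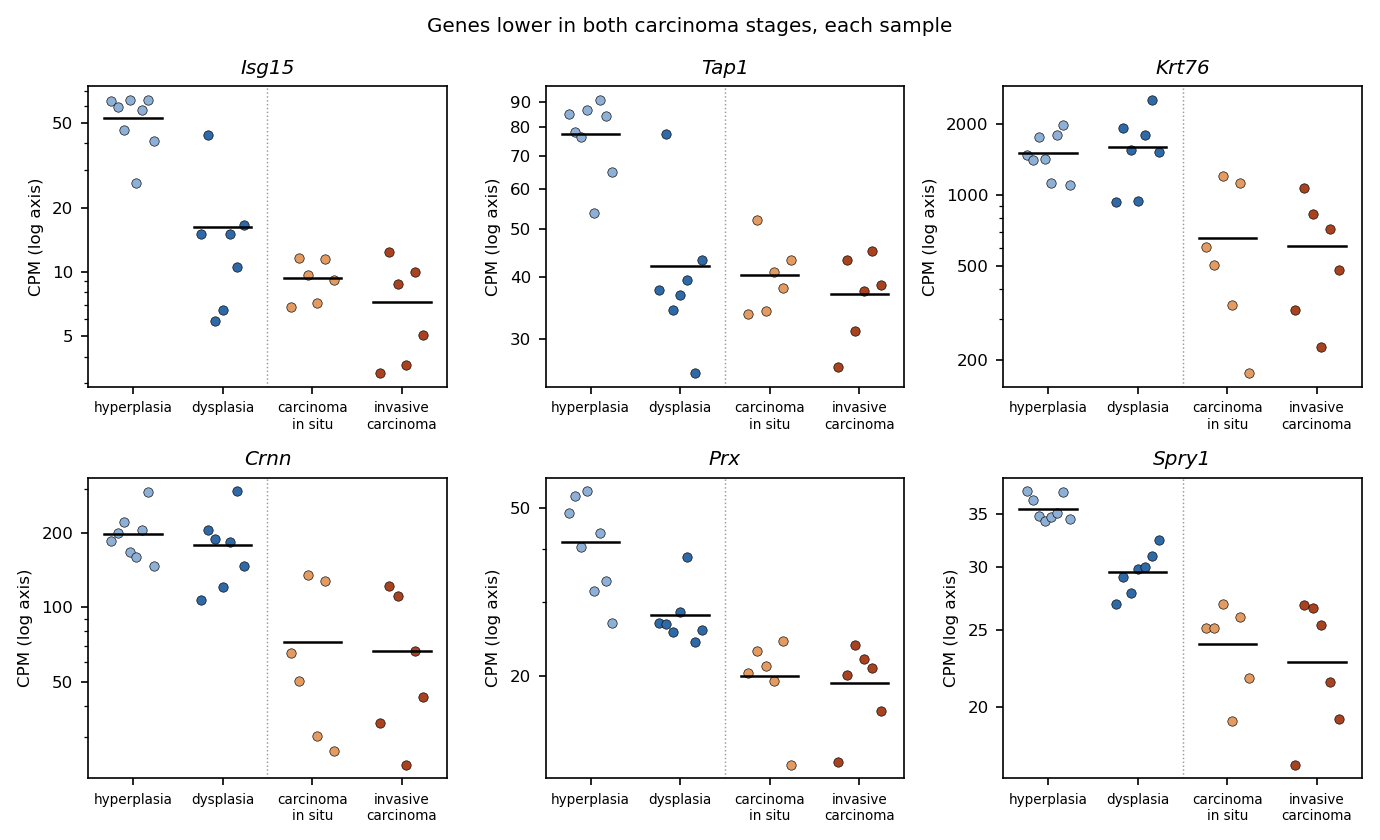
CPM on a log axis in each sample of the 4 stages for Isg15, Tap1, Krt76, Crnn, Prx and Spry1, with bars at the stage means and a dotted line between the classes. The hyperplasia samples stand highest for Isg15 and Tap1 (means of 52.6 and 77.5 CPM), while Krt76 and Crnn have similar means in hyperplasia and dysplasia and lower means in both carcinoma stages.

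Nerve and vessel genes were lower. Of 14 Schwann cell and nerve genes 12 fell and none rose (median -0.71). Prx, periaxin of the myelin sheath, was at 24.1 to 54.9 CPM (median 31.8) in the premalignant samples and at 12.3 to 24.2 CPM (median 20.6) in the carcinomas, a change of -0.84 ± 0.14 (adjusted p = 0.00012). In 11 of 12 carcinomas Prx was below every premalignant sample. Its mean was 41.7 ± 10.4 CPM in hyperplasia against 27.9 ± 4.8 in dysplasia, a step of -0.58 (adjusted p = 0.027), and the next step, to carcinoma in situ, was -0.48 (0.085). Of 19 endothelial genes 15 fell and none rose (median -0.33), among them the vessel receptors Tek (-0.66 ± 0.12) and Tie1 (-0.53 ± 0.10). With the muscle score in the fit, 9 nerve and 8 endothelial genes fell, beside 2060 of all 16203 genes. Of 24 fibroblast genes 4 rose and 5 fell, shares near those of all genes (20.8% and 19.1%), with 8 falling without carcinoma in situ sample 4. Dcn, decorin of the collagen matrix, was at 551 to 864 CPM in the premalignant samples and at 283 to 638 CPM in the carcinomas, with a change of -0.50 ± 0.10, and Fap and Pdgfra had changes of -0.69 ± 0.15 and -0.48 ± 0.12. Tnc, a matrix protein of remodelling tissue, rose by 1.43 ± 0.25.

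**Figure D4:**
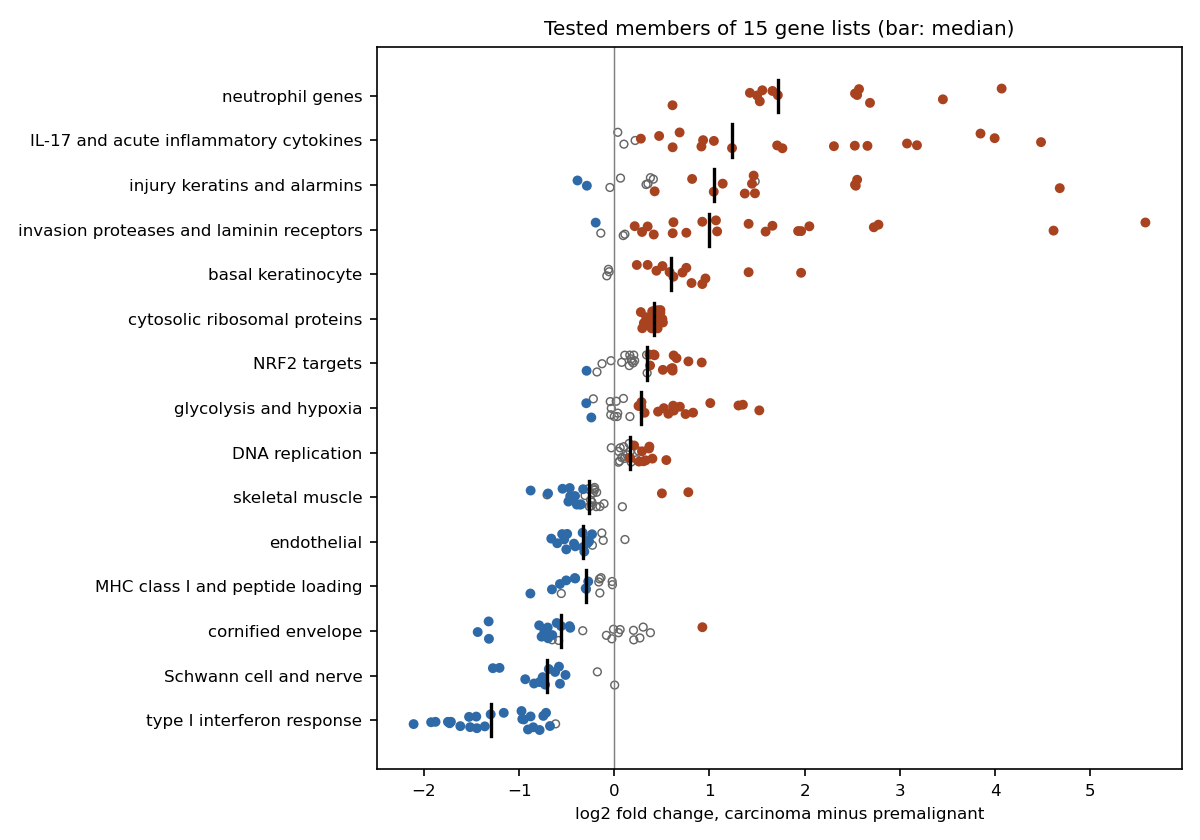
Log2 fold change of carcinoma over premalignant for each tested member of 15 gene lists, with filled points for genes called at an adjusted p under 0.05 (red higher, blue lower), open points for the others and a bar at each list's median. Medians run from 1.72 for neutrophil genes to -1.30 for the type I interferon response, and the ribosomal proteins form the narrowest group.

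Most cell cycle genes did not pass. Of 25 mitosis genes 9 rose and of 25 replication genes 10 rose, none of either falling, with medians of 0.15 and 0.17, beside 20.8% of all genes that rose. The mitosis count was 15 without carcinoma in situ sample 4 and at least 6 with any other sample left out. Birc5, survivin, went from 13.3 to 22.7 CPM to 11.7 to 31.2 CPM, by 0.44 ± 0.11, Pcna rose by 0.26 ± 0.08 and Gins2, of the replication helicase, by 0.55 ± 0.13. With the muscle score in the fit 2 of each list rose, beside 2270 of all 16203 genes. Without dysplasia, or without invasive carcinoma, no mitosis gene rose. Cdkn2a, which encodes the tumour suppressors p16INK4a and p19ARF, was at 1.25 to 4.16 CPM (median 3.39) in the premalignant samples and at 3.22 to 18.8 CPM (median 7.55) in the carcinomas, by 1.51 ± 0.23 (adjusted p = 5.1e-05). Its neighbour Cdkn2b rose by 0.49 ± 0.07 and Cdk4, the kinase that p16 inhibits, by 0.31 ± 0.07. Ccnd2, cyclin D2, fell by 0.46 and Cdkn1a, the inhibitor p21, by 0.41.

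Of 23 driver genes of oral squamous carcinoma 7 rose and 3 fell, beside 20.8% and 19.1% of all genes. All but Cdkn2a changed by less than 1.5-fold. Trp63 rose as above, Ajuba by 0.30 ± 0.08, Tgfbr2 by 0.28 ± 0.07, Myc by 0.25 ± 0.08, Hras by 0.20 ± 0.06 and Trp53 by 0.19 ± 0.06. Notch1, a receptor that drives keratinocyte differentiation, fell by 0.36 and Rb1 by 0.18. Of 20 members of the EGF receptor family list 4 rose and 4 fell, shares near those of all genes (20.8% and 19.1%), and 7 or 8 rose without dysplasia sample 6, carcinoma in situ sample 4 or invasive carcinoma sample 5. Its ligand genes Areg, Hbegf and Epgn had changes of 1.65 ± 0.30, 1.16 ± 0.21 and 1.10 ± 0.27. Epgn lost its call with the muscle score, with the replicate block and without hyperplasia. The genes of the list that fell are not named here, and its lowest change was -0.615. Of 18 prostaglandin and leukotriene genes 5 rose and 2 fell, shares to set beside 20.8% and 19.1% of all genes, and the lowest change was -0.646. Ptgs2, cyclooxygenase 2, rose by 2.12 ± 0.39 and Ptges, the synthase of prostaglandin E after it, by 1.02 ± 0.15.

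The genes with the most even decreases belong to no single list. Itpkb, an inositol phosphate kinase, was at 59.2 to 69.7 CPM (median 64.3) in the premalignant samples and at 36.2 to 58.3 CPM (median 44.1) in the carcinomas, with a change of -0.50 ± 0.05 (adjusted p = 1.3e-06). Maml3, a coactivator of Notch, went from 21 to 29.1 CPM to 15.3 to 20.9 CPM, with a change of -0.44 ± 0.06, and Spry1, an inhibitor of receptor tyrosine kinase signalling, from 26.9 to 37.3 CPM to 16.9 to 26.9 CPM, with a change of -0.49 ± 0.07 and classes that all but touch. Of 18 circadian clock genes 9 fell and 4 rose, beside 19.1% and 20.8% of all genes. The share that rose was near that of all genes. The output factors Tef and Dbp had changes of -0.63 ± 0.10 and -0.94 ± 0.24, and Nfil3, which acts against them, rose by 0.68 ± 0.12. The labels give no hour of collection.

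The single-stage steps, from 1 fit with a mean per stage, share samples with each other and with the pooled comparison. Hyperplasia to dysplasia and dysplasia to carcinoma in situ each cross a code letter, so stage and any batch by letter cannot be told apart there. Both carcinoma stages share the letter C. Dysplasia against hyperplasia gave 977 called genes (6.03%), carcinoma in situ against dysplasia 949 (5.86%) and invasive carcinoma against carcinoma in situ 0 (0.0%), where 1213 genes had an unadjusted p under 0.05 in edgeR. With 1 sample left out in turn, the first count ran from 539 (without dysplasia sample 6) to 1600 (without dysplasia sample 1). The second ran from 149 (without carcinoma in situ sample 7) to 2305 (without carcinoma in situ sample 4). For Adam8, Inhba and Mmp13 the middle step had the largest value. Adam8 had steps of 0.33 (adjusted p = 0.12), 0.80 (0.0053) and 0.20 (0.74) in that order. Inhba had steps of -0.06 (0.95), 2.43 (0.0096) and 0.26 (0.89), and Mmp13 of 0.90 (0.58), 3.69 (0.016) and 0.91 (0.77). Itpkb had steps of 0.01 (0.96), -0.49 (0.0043) and -0.04 (0.91). Cdkn2a went from 2.94 ± 0.934 CPM in dysplasia to 10.4 ± 6.13 in carcinoma in situ, a step of 1.83 (adjusted p = 0.0088).

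A test of whether the middle step differs from the mean of the other 2 steps called 58 genes (0.358%), 13 more positive and 45 more negative. That count ran from 5 (without carcinoma in situ sample 11) to 360 (without dysplasia sample 1). The test did not call Adam8 (0.54 ± 0.21, adjusted p = 0.23), Inhba (2.33 ± 0.68, 0.10), Mmp13 (2.78 ± 1.26, 0.32), Itpkb (-0.47 ± 0.12, 0.066) or Cdkn2a (2.18 ± 0.50, 0.053). Tppp, a tubulin polymerisation protein, had the smallest p of that test (-1.72 ± 0.18, adjusted p = 9.1e-06). It went from 33.1 ± 2.87 CPM in hyperplasia to 62.5 ± 9.44 in dysplasia, and the carcinomas had 31.0 ± 7.62 (in situ) and 44.2 ± 4.6 CPM (invasive), so dysplasia stood apart and the pooled comparison did not call it (-0.32 ± 0.17, adjusted p = 0.13). Rfx2, a factor of cilium genes, and Per2, of the clock, were likewise highest in dysplasia, at 23.3 ± 5.25 and 17.4 ± 3.57 CPM. A test of stages within a class called 591 genes (3.65%). The contrast of stage means in place of pooled samples, which weights the stages of a class equally, called 6779 genes (41.8%).

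**Figure D5:**
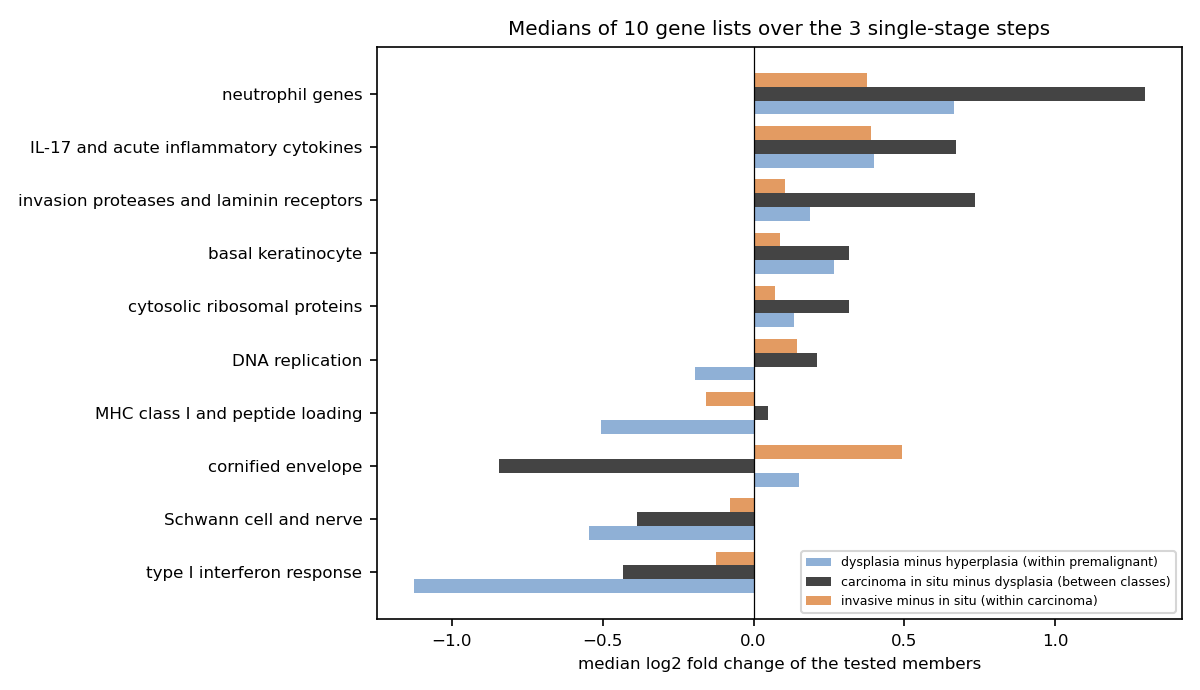
Median log2 fold change of the tested members of 10 gene lists for the steps from hyperplasia to dysplasia (light blue), dysplasia to carcinoma in situ (dark grey) and carcinoma in situ to invasive carcinoma (orange), without error bars. The interferon list has its longest bar at the first step (-1.13), and the neutrophil and invasion lists at the second (1.30 and 0.74).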

How the data were processed

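RNA was extracted with a column kit, and a kit for stranded mRNA libraries was used, per the labels' protocols. The submitters' processing notes name cutadapt 2.4, STAR 2.7.2a and the build GRCm38. The counter, whether it used strand, and the annotation it used are not given in the sources used here, so reads of overlapping, antisense or near-identical genes may be shared or split. The values are raw counts, deposited by the authors as 1 table of whole numbers with a row per Ensembl gene and 30 samples. Of its 55487 identifiers, 55227 (99.53%) matched GENCODE M21, which gave symbols and GRCm38 positions.

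The title of each sample gave its stage and so its class. edgeR 4.0.16 in R 4.3.3 was run on the 27 samples with TMM factors (0.95 to 1.04), its default filter on the 2 classes and a robust quasi-likelihood fit with 1 mean per class; the stage steps used 1 mean per stage on the same genes. Tests were two-sided, with Benjamini-Hochberg adjustment over all 16203 genes and a call under 0.05. The biological coefficient of variation was 23.1%. On simulated data with these libraries, the pooled test recovered 79.1% of 1.5-fold, 92.5% of 2-fold and 100% of 4-fold changes with 4.74% of calls false. The test of invasive carcinoma against carcinoma in situ recovered 58.2%, 76.1% and 98.5%, with 5.49% false. The simulation drew each gene independently and changed 67, 67 and 66 genes by these folds. It held no other differences of stage or tissue make-up, so its rates need not hold for the real calls. The count limits the precision of genes of a few CPM.

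Gene lists numbered 52 and are described by counts and medians. The comparison, lists and rules were chosen with earlier results of these data known. Named genes are the 12 largest increases and decreases and the 10 smallest p each way among called genes of at least 10 CPM, genes with no overlap, up to 4 members of smallest p per list described, called driver and checkpoint genes and the 6 smallest p each way in the test of the middle step. Fewer are named where space asked for it, a few genes of the rule are not reported here, and some list members are named as examples outside the rule, chosen after their values were seen. Predicted genes and pseudogenes were left out of the ranking. Muscle and salivary scores average the log2 CPM of the genes in the list, with a prior count of 2, and components used the 2000 most variable genes. Promoter windows are the 250 bases before the start in RefSeq (GRCm38.p6), and 72.4% of tested genes matched one by symbol.

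The fits were repeated with upper-quartile or RLE factors, without the expression filter, with an adjusted p under 0.01, with muscle and salivary scores as covariates, with the normal samples in the fit, by DESeq2 1.42.0, limma-voom (limma 3.58.1) with sample weights, glmTreat, 1 mean per stage, the replicate number as a block, each stage or sample left out, and muscle and mitochondrial genes removed. Leaving out hyperplasia sample 8, dysplasia sample 1 and invasive carcinoma sample 12 together was chosen after seeing the data. Python 3.11.15 (numpy 2.4.6, pandas 2.3.3) made the tables and matplotlib 3.10.9 the figures.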

Additional observations from a re-analysis of the deposited data

Results flagged for a closer look

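Within each stage, samples far from the others were sought for 4 measures of library make-up and 12 genes, 64 groups in all, with Dixon's test, which chance alone meets in about 1 in 20 groups. It marked 6 values. Mitochondrial transcripts took 5.95% of counts in dysplasia sample 6, the lowest of its stage. The same sample had the lowest Adam8 of its stage, 3.65 log2 CPM. Invasive carcinoma sample 12 had the lowest skeletal muscle score of its stage, 8.02 log2 CPM. Hyperplasia sample 8 had the lowest Cdkn2a of its stage, 0.43 log2 CPM. Dysplasia sample 5 had the highest Prx of its stage, 5.26 log2 CPM, and carcinoma in situ sample 7 the lowest, 3.63. With any 1 of these samples left out, Adam8 and Cdkn2a still rose and Prx still fell in the pooled comparison.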

How the results depend on the processing

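The pooled comparison gave 6468 calls (3373 higher, 3095 lower). It gave 3845 (2182, 1663) at an adjusted p under 0.01 and 130 (107, 23) with glmTreat against a fold of 1.5. It gave 2435 (1372, 1063) without hyperplasia, 2878 (1759, 1119) without invasive carcinoma, and 2060 lower genes with the muscle score. Other settings gave 4330 to 6801 calls, and 1 sample left out 5629 to 7323 (2996 to 3789 higher, 2633 to 3534 lower). The share of higher calls was 52.1%, 50.1% with RLE factors, 49.7% with DESeq2 (so that lower calls were the more frequent) and 61.1% without invasive carcinoma. Deviations of same-numbered samples from their stage means had a median correlation of -0.02 (22 pairs, -0.70 to 0.51, 8 above 0.1). Pairs of other numbers had a median of 0.01 (214 pairs). These values cannot decide whether the numbers pair samples, since they spread widely and the labels do not say. With the number as a replicate block the pooled comparison gave 3610 calls (1915 higher, 1695 lower).

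Dysplasia against hyperplasia gave 977 calls, 297 at 0.01, 537 without the filter and 610 with the muscle score. Carcinoma in situ against dysplasia gave 949, then 17, 356 and 2542, and 2726 with both scores. Leaving out 1 sample gave 539 to 1600 and 149 (without carcinoma in situ sample 7) to 2305 (without carcinoma in situ sample 4). Invasive carcinoma against carcinoma in situ gave 0 or 1 in every such fit. The test of the middle step gave 58 calls, 3 at 0.01, 90 with RLE factors, 22 with upper-quartile factors, 6 without the filter, 434 with the muscle score and 489 with both, and 5 (without carcinoma in situ sample 11) to 360 (without dysplasia sample 1) by sample. Stages within a class gave 591, then 155, 373 without the filter, 311 and 390, and 335 to 1058 by sample. The cause of these moves was not tested.

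Of 135 genes named with a value in the pooled comparison, all kept their direction with each single sample left out, and B2m alone lost its call that way. Calls were lost by 36 of them without hyperplasia, 20 without invasive carcinoma, 15 with the replicate block, 8 with the muscle score and 4 or fewer without dysplasia or without carcinoma in situ. Besides genes of the interferon and class I lists, those lost without hyperplasia include Krt5, Krt14, Krt17, Trp63, Itga3, Itgb4, Fos, Notch1, Zeb1 and Myc. Those lost without invasive carcinoma include S100a8, S100a9, Krt14, Trp63, Birc5 and Pcna. Signs turned for Cd274 (0.027 with the muscle score, 0.015 with both scores), B2m (0.014 without hyperplasia), Per2 (0.12), Tppp (0.18) and Rfx2 (0.49) without dysplasia, and Rfx2 (0.14) without carcinoma in situ. Without hyperplasia sample 8, dysplasia sample 1 and invasive carcinoma sample 12 together, 5633 genes were called.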

Other observations

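Several of the most regular increases fell outside the lists described. Upp1, uridine phosphorylase, which splits uridine into base and sugar, went from 3.27 to 6.41 CPM (median 4.92) in the premalignant samples to 5.79 to 24.1 CPM (median 14.7) in the carcinomas, a change of 1.61 ± 0.19 (edgeR adjusted p = 6.6e-06), with 11 of 12 carcinomas above every premalignant sample. Marcksl1, an actin-binding protein, rose by 0.96 ± 0.12 and Lancl1, a glutathione-binding protein, by 0.40 ± 0.05. Csn1s1, a milk casein, rose by 4.01 ± 0.70, from at most 6.65 CPM to 0.957 to 78.5 CPM, by 4.90 without dysplasia sample 2 and by 3.25 without invasive carcinoma sample 12. Among the most regular decreases, the kinesin-like Stard9 had a change of -0.77 ± 0.10, Arhgap29, a GTPase activator, of -0.57 ± 0.07, Klf12 of -0.51 ± 0.07 and Cipc, a partner of CLOCK, of -0.36 ± 0.05.

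Other lists were mixed, beside 20.8% of all genes higher and 19.1% lower. Of 26 lipid barrier genes 6 rose and 8 fell, and 3 rose without hyperplasia sample 4 or invasive carcinoma sample 6 or 9, with the lipase gene Lipn at 1.57 ± 0.25 and the ceramide enzyme gene Degs2 at 1.08 ± 0.24. Of 20 squamous lineage transcription factors 6 rose and 1 fell, with Elf3 at 0.92 ± 0.16. Of 28 Wnt genes 6 rose and 6 fell, and of 17 Notch genes 1 rose and 4 fell. Of 18 heat shock genes 5 rose and none fell, with Hspe1, a mitochondrial co-chaperone, at 0.35 ± 0.06. Of 6 tested erythrocyte genes none passed in edgeR's test, and 3 fell without invasive carcinoma sample 12.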
